A study of Mus musculus with 2 samples.

Results

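The 6 genes described here encode the 3 Runx transcription factors (Runx1, Runx2 and Runx3), their shared partner Cbfb, and the ETO corepressors Runx1t1 and Cbfa2t3. They were listed by name, with no threshold on a measured value, out of 21938 protein-coding genes counted. Open chromatin was profiled by single-cell ATAC-seq, in which a transposase cuts accessible DNA and each sequenced fragment carries the barcode of its nucleus. Long-term hematopoietic stem cells (HSCs) were sorted from bone marrow of C57BL/6 mice as cells positive for c-kit, Sca-1 and CD150 and negative for Lin, CD34, CD48, Flt3 and IL-7 (as the labels write it), with 1 library from 10-week-old (young) and 1 from 20-month-old (aged) mice. The mice carried no allele or treatment that the labels name, the mice the study bought were female, and how many mice went into a library is not given in the sources used here. Each library is a single sample of its age, so no test between ages was possible. The 95% intervals below are exact, Poisson for levels and binomial for shares and ratios. They cover counting error only, since a difference between mice, sorts or library preparations cannot be told apart from a difference between ages.

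Runx proteins bind DNA through the Runt domain, and CBFβ, the product of Cbfb, joins them without touching DNA and strengthens their binding. Each Runx gene is read from a distal promoter, P1, and a proximal promoter, P2, which give proteins with different N termini. Runx1 is required for the emergence of HSCs and for platelet and lymphoid maturation, Runx2 is the master regulator of bone formation, and Runx3 acts in T cells and neurons. Runx1t1 (ETO) and Cbfa2t3 (ETO2) recruit histone deacetylases through other DNA-binding proteins, and RUNX1-RUNX1T1 is a fusion of acute myeloid leukemia.

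After barcodes called as cells with 3000 to 20000 in-peak fragments were kept, 4887 young and 3405 aged cells remained, with a median of 9890 and 11020 fragments per cell. Fragments in a combined set of 162169 peaks called from these cells came to 34508783 in young and 26032430 in aged HSCs, and levels are given as fragments per 1000000 of these (FPM). Barcodes of 26 cells occurred in both libraries. Short fragments, those under the length of DNA wrapped on a nucleosome, made up 59.8% of young and 55.0% of aged fragments, and the median enrichment at transcription start sites was 5.78 and 5.30. Promoters of 10 HSC marker genes had a median of 19.8 FPM in young and 19.4 FPM in aged HSCs and sums of 219.9 and 224.9 FPM, with log2 ratios of aged over young from -0.10 for Kit to 0.44 for Tek and Slamf1, which encodes the sort marker CD150. Markers of mature cells at low levels included Cd3e, at 0.840 and 0.576 FPM, and Ly6g, at 0.609 and 0.346 FPM. Summed promoter levels of 5 marker genes each were 43.0 and 41.5 FPM for B cells, 49.4 and 40.5 FPM for T cells, 20.8 and 23.1 FPM for mature myeloid cells, 48.1 and 45.8 FPM for erythroid cells, 141.8 and 129.5 FPM for megakaryocytes, and 53.3 and 57.5 FPM for stroma and endothelium. Some of these promoters were open in both libraries, among them Cd3d of the T cell list at 41.6 and 34.4 FPM, and the part of such cells in the results below was not tested. Summed over cells, more open cells and more fragments per cell cannot be told apart.

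The 3 P1 promoters of the Runx genes are shown first because they hold the same pair of RUNX sites. The sequences are those of RefSeq on GRCm38 (the same build as mm10), which lists 8 promoters for 5 of the 6 genes and none for Runx1t1. Each runs from 250 bases before to 50 bases after the RefSeq start on the coding strand, and capitals mark the RUNX core TGTGGT, searched on both strands (ACCACA is its reverse complement). Runx1 P1 is chr16:92826025-92826324 on the minus strand, Runx2 P1 is chr17:44814578-44814877 on the minus strand, Runx3 P1 is chr4:135120395-135120694 on the plus strand, and Runx1 P2, printed for contrast, is chr16:92697280-92697579 on the minus strand.
Runx1 P1: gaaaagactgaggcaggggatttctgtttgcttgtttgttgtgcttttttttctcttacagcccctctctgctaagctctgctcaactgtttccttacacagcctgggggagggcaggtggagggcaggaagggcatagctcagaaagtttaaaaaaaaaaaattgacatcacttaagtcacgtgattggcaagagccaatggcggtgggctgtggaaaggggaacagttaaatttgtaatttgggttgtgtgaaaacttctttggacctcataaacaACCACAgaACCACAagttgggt
Runx2 P1: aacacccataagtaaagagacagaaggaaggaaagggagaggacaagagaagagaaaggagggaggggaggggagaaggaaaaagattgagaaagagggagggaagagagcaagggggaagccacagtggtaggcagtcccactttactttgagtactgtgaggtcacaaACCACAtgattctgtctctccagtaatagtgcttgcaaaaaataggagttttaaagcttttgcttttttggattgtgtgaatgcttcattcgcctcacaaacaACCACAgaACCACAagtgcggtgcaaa
Runx3 P1: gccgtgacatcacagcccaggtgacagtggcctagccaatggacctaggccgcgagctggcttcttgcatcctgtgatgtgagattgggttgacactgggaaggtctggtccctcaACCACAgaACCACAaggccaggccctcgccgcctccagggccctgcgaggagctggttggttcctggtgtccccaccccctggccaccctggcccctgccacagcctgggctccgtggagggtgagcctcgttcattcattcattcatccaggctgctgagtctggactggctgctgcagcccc
Runx1 P2: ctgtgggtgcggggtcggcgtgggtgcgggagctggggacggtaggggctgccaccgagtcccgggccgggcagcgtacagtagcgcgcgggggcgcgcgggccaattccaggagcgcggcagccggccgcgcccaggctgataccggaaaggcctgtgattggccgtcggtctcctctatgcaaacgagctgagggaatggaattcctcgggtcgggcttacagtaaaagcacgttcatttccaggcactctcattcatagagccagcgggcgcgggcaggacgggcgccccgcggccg
All 3 P1 promoters held 2 copies of the core in a row, ACCACAGAACCACA, with 2 bases between them. The pair began 28 bases after the RefSeq start in Runx1, 23 bases after it in Runx2 and 134 bases before it in Runx3. Of 32851 RefSeq promoters of the same length, 7 (0.0213%) held the core as such a pair, in either orientation and with any 2 bases between. The pair was looked for after these sequences had been seen. The single core occurred in 16.8% of all promoters and in 3 of the 8 listed for the members, the same 3 P1 promoters. The P1 promoters were also poor in CpG, with an observed over expected ratio of 0.137 in Runx1, 0.143 in Runx2 and 0.264 in Runx3, against 1.01 at P2 of both Runx1 and Runx3. A match describes letters and not binding.

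Among the 14 promoter windows of the 6 genes (1 kb on either side of each group of annotated starts), the Runx1t1 starts and Runx2 P1 had higher levels in aged HSCs, and the others stayed within a log2 ratio of aged over young of -0.32 to 0.32 or had too few fragments. Of the 13 windows with at least 200 fragments in both libraries together, 4 were past this limit upward and 0 downward. Over all 17451 promoter windows with that many fragments, 8.01% were past it upward and 2.39% downward, and the median log2 ratio was -0.05. Of the 4 windows, 3 belong to 1 gene, Runx1t1, and are not independent of each other.

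**Figure D1:**
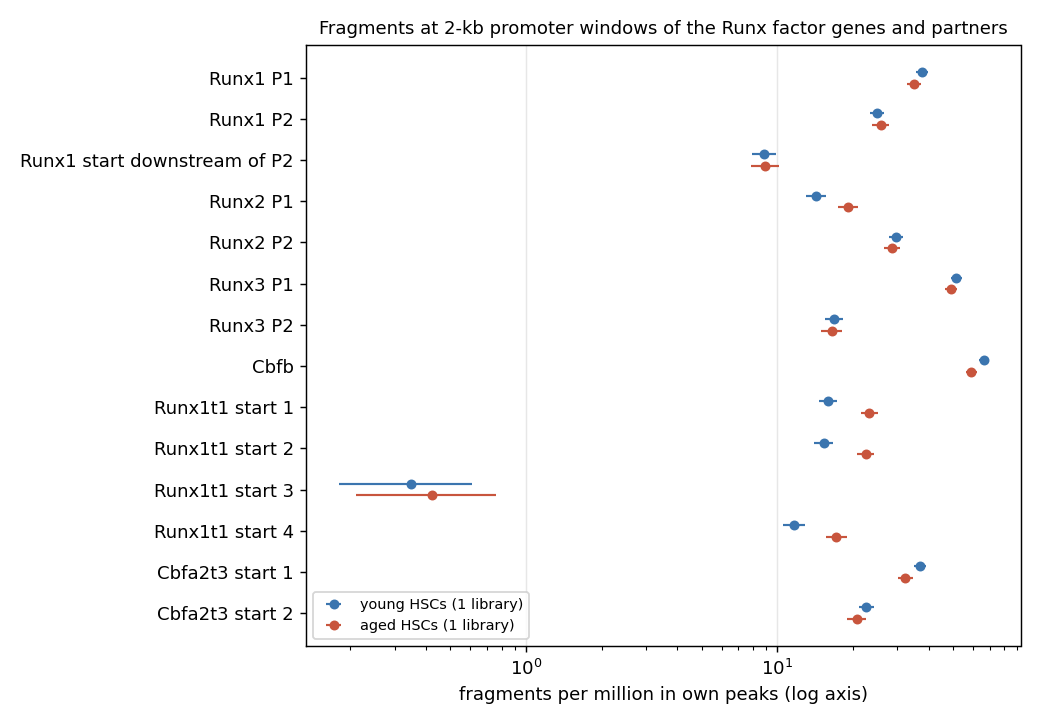
Level of each promoter window in FPM (x axis, log scale) in young (blue) and aged (red) HSCs, 1 library each, with exact Poisson 95% intervals as bars. The intervals of the 2 ages do not overlap at Runx2 P1 and at starts 1, 2 and 4 of Runx1t1, where aged HSCs were higher, nor at Cbfb and start 1 of Cbfa2t3, where they were lower but within the limit. The share of all promoter windows with intervals that do not overlap was not counted.

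Over these windows, Runx1 had similar levels at both promoters in the 2 ages. Its P1 (start at chr16:92826149, minus strand) had 1300 fragments in young and 912 in aged HSCs, or 37.7 FPM (35.6 to 39.8) and 35.0 FPM (32.8 to 37.4), a log2 ratio of -0.10 (-0.23 to 0.02). Within the P1 window, the peak at the start (chr16:92825861-92826321) was lower in aged HSCs, with 974 and 635 fragments and -0.21 (-0.36 to -0.06). Smaller peaks beside it had 0.46 and 0.24. The P1 ratio was -0.14 with 500 bp on either side and -0.19 with short fragments only or with thinned cells. Runx1 P2 (chr16:92697328) had 859 and 670 fragments, or 24.9 and 25.7 FPM, a log2 ratio of 0.05 (-0.10 to 0.20). P2, the promoter of the shorter Runx1 protein, therefore held 39.8% (37.7 to 41.9) of the P1 and P2 fragments in young and 42.4% (39.9 to 44.8) in aged HSCs, intervals that overlap. A further start group downstream of P2 (chr16:92696125), whose window overlaps that of P2, had 8.87 and 8.95 FPM, a log2 ratio of 0.01, and with 500 bp on either side, which removes the overlap, the ratio was 0.63 over too few fragments for the limit to apply.

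Runx2 had a higher level in aged HSCs at P1 and not at P2. P1 (chr17:44814797, minus strand) had 492 young and 497 aged fragments, or 14.3 FPM (13.03 to 15.6) and 19.1 FPM (17.4 to 20.8), a log2 ratio of 0.42 (0.24 to 0.60) that exceeded 94.9% of the tested windows. P2 (chr17:44736648) had 29.6 and 28.7 FPM, a log2 ratio of -0.05 (-0.19 to 0.09). The share of P2 among both was 67.5% (65.1 to 69.9) in young and 60.0% (57.2 to 62.7) in aged HSCs, so that the intervals did not overlap, and this ratio within a library does not depend on the scaling. Just inside the gene the direction turned: an intron peak 1.89 kb inside the gene (chr17:44812731-44813091) had 200 young and 98 aged fragments, a log2 ratio of -0.62 (-0.99 to -0.27), and with 2 kb on either side of the start the log2 ratio of P1 was 0.18. On the other side, peaks of the 100 kb upstream of P1, including that part of the P1 peak, had 27.1 and 32.9 FPM, a log2 ratio of 0.28 (0.14 to 0.41).

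Runx3 levels differed little. P1 (chr4:135120652, plus strand), with 1781 and 1278 fragments, had 51.6 and 49.1 FPM, a log2 ratio of -0.07 (-0.18 to 0.03). P2 (chr4:135152496) had 16.8 and 16.5 FPM, a log2 ratio of -0.03 (-0.21 to 0.15). The P2 share was 24.6% (22.8 to 26.3) in young and 25.1% (23.1 to 27.3) in aged HSCs. The ratios of the 3 P1 promoters, which share the pair of RUNX sites, ran from -0.10 in Runx1 to 0.42 in Runx2. A relation between the pair and the ratios was not tested.

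Cbfb, the common partner, had the highest level of the 14 windows at both ages. Its start (chr8:105170674, plus strand) had 2282 and 1538 fragments, or 66.1 FPM (63.4 to 68.9) and 59.1 FPM (56.2 to 62.1), above 96.5% and 95.8% of all promoter windows. Its log2 ratio of -0.16 (-0.26 to -0.07) lay below 0 by more than counting error but within the limit of -0.32, and 14.98% of the tested windows were lower. Promoters of this level lay lower in general: over the 4455 windows with 40 to 80 FPM in young HSCs the median log2 ratio was -0.09.

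Of the ETO corepressor genes, Runx1t1 was past the limit and Cbfa2t3 was not. Runx1t1 had 548 and 605 fragments at start 1 (chr4:13743436, plus strand), or 15.9 FPM (14.6 to 17.3) in young and 23.2 FPM (21.4 to 25.2) in aged HSCs, a log2 ratio of 0.55 (0.38 to 0.72). Start 2 (chr4:13751297) had 15.3 and 22.4 FPM, a log2 ratio of 0.55 (0.38 to 0.73), and start 4 (chr4:13784782) had 11.7 and 17.2 FPM, a log2 ratio of 0.56 (0.36 to 0.76). All 3 exceeded about 97% of the tested windows, at 97.0%, 97.0% and 97.1%. Start 3 (chr4:13771377) had 12 and 11 fragments and was nearly closed at both ages. Windows of a like level were often higher in aged HSCs: of the 3368 windows with 10 to 20 FPM in young HSCs, 10.4% were past the limit upward, with a median log2 ratio of 0.05 and a 95th percentile of 0.41. Cbfa2t3 start 1 (chr8:122699109, minus strand) had 1276 and 840 fragments, or 37.0 FPM (35.0 to 39.1) and 32.3 FPM (30.1 to 34.5), a log2 ratio of -0.20 (-0.32 to -0.07), and start 2 (chr8:122678694) had 22.6 and 20.7 FPM, a log2 ratio of -0.13 (-0.29 to 0.03). The ratio of start 2 was -0.36, past the limit, with thinned cells.

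**Figure D2:**
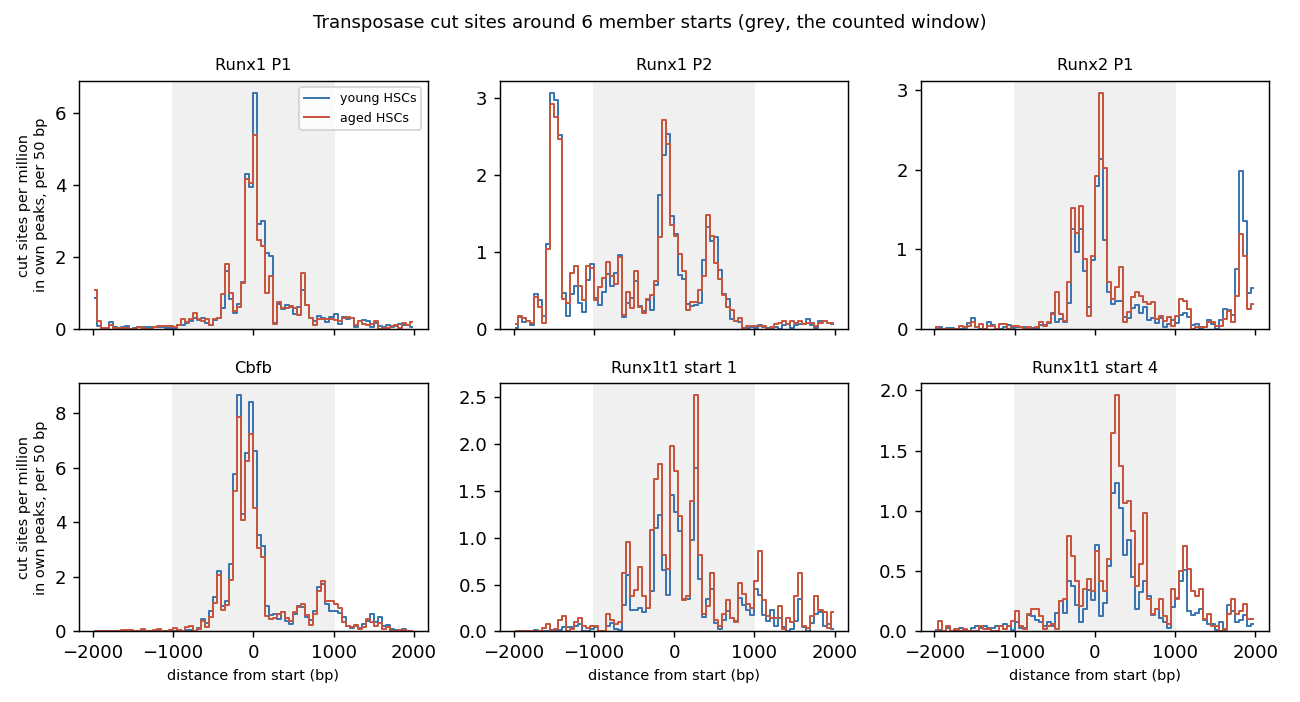
Transposase cut sites per 1000000 fragments in own peaks (y axis) in 50-bp steps by distance from the start along transcription in bp (x axis), for 6 member starts in young (blue) and aged (red) HSCs, with the counted window in grey. The 2 lines are close to each other at Runx1 P1, Runx1 P2 and Cbfb, although the Cbfb window was lower in aged HSCs (log2 ratio of -0.16, -0.26 to -0.07). The aged line lies above at the Runx1t1 starts and at Runx2 P1, where the peak near the right edge is lower in aged HSCs.

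The share of short fragments was lower in aged HSCs at most of these promoters. It was higher only at Runx1t1 start 4 and at Cbfa2t3 start 2 (64.9% in young and 67.2% in aged HSCs), with overlapping intervals. Intervals of the 2 ages did not overlap at Runx1 P1, Runx1 P2 and Cbfa2t3 start 1, each lower in aged HSCs. How many of all promoter windows do the same was not counted, and the whole libraries had 59.8% in young and 55.0% in aged HSCs. At Runx1 P1 the share of short fragments was 65.2% (62.6 to 67.8) in young and 57.8% (54.5 to 61.0) in aged HSCs, and the whole library also had a lower share in aged HSCs. At Runx1t1 start 1 it was 51.8% (47.6 to 56.1) and 48.6% (44.5 to 52.7), and at Runx1t1 start 4 it was 43.5% and 45.0%, the lowest of the 13 windows at both ages. Cbfb and Runx3 P1 had the highest shares, 75.9% and 79.8% in young HSCs.

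Over whole gene bodies, Runx1t1 was again the gene that was higher in aged HSCs. It had 4248 young and 4505 aged fragments over its 150 kb, or 123 FPM (119 to 127) and 173 FPM (168 to 178), a log2 ratio of 0.49 (0.43 to 0.55) above 96.5% of gene bodies. Of the 6 genes, 1 was past the limit of 0.32 upward and 0 downward, against 7.50% and 1.99% of 16897 gene bodies with at least 200 fragments, whose median was -0.02. The other 5 genes lay between -0.11 and -0.02: Cbfb at -0.11, Runx2 at -0.10, Runx3 at -0.06, Cbfa2t3 at -0.06 and Runx1 at -0.02. Per kb of gene, Cbfa2t3 was the most accessible with 3.54 and 3.41 FPM per kb, and Runx1t1 went from the lowest in young HSCs, 0.820 FPM per kb, to 1.15 FPM per kb, next to Cbfb with 1.19 and 1.102.

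The higher level over Runx1t1 was not confined to its peaks. Inside the gene, fragments in own peaks had a log2 ratio of 0.39 (0.31 to 0.46) and fragments outside them, 1383 in young and 1675 in aged HSCs, had 0.68 (0.58 to 0.79). Fragments outside peaks over the whole genome had a log2 ratio of 0.11 on the same scale. The 100 kb downstream of the gene had 0.57 (0.32 to 0.82) in peaks and 0.55 (0.35 to 0.75) outside them. The 100 kb upstream had 0.61 (0.40 to 0.82) in peaks, including that part of the start 1 peak, and 0.17 (-0.05 to 0.39) outside them. Peaks farther upstream held few fragments, 26 young and 33 aged in the first and 36 and 37 in the next, with intervals that included 0. With the 1 kb on either side of each start left out, the gene body still had 0.48 (0.41 to 0.55). Chromosome 4, which carries Runx1t1 and Runx3, had a log2 ratio of 0.0019 over its peaks.

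**Figure D3:**
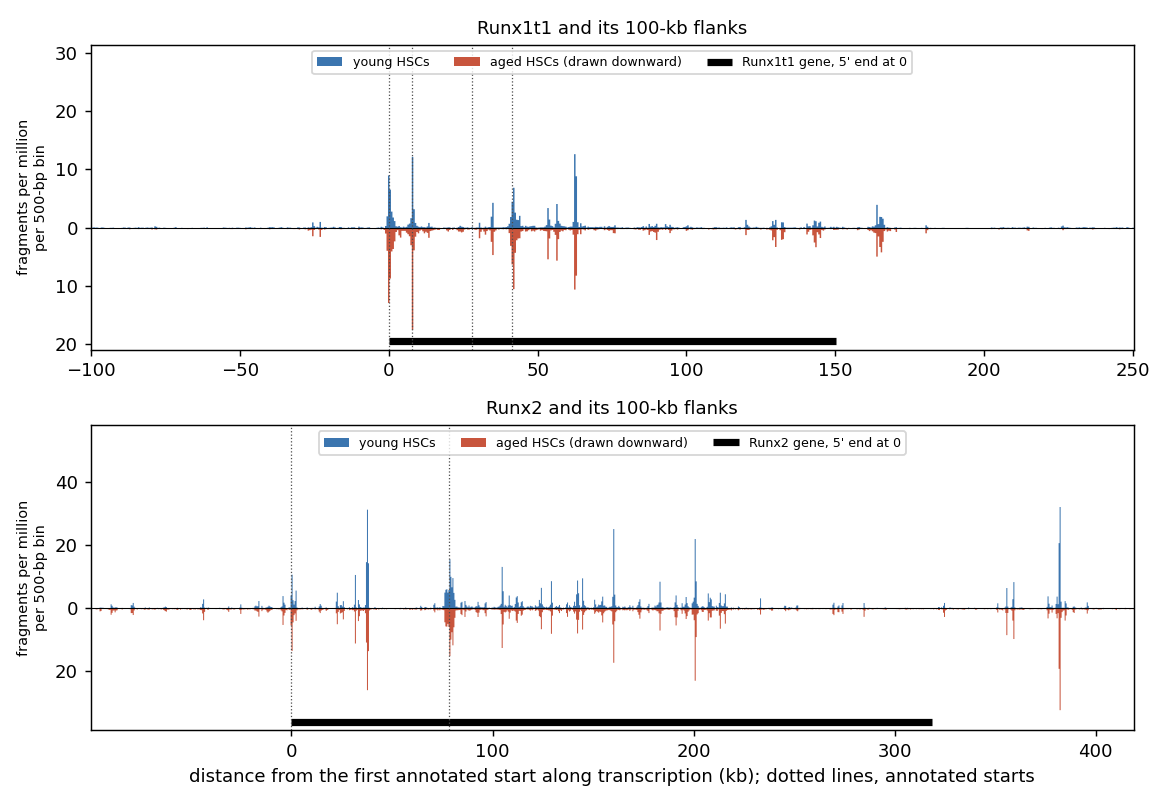
Level in FPM of 500-bp bins (y axis; young HSCs upward in blue, aged HSCs downward in red) by distance in kb from the first annotated start along transcription (x axis), for Runx1t1 and Runx2 with 100 kb on either side; the black bar is the gene and dotted lines are annotated starts. At Runx1t1 the bars around starts 1, 2 and 4 are longer in aged HSCs, and those of the intron peak at 62.6 kb are longer in young HSCs.

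Own peaks with at least 200 fragments in the genes and their 100-kb flanks numbered 25 at Runx1, 32 at Runx2, 28 at Runx3, 24 at Cbfb, 8 at Runx1t1 and 30 at Cbfa2t3. Of all these, 2 were past 1.5-fold upward and 4 downward. Over all 66387 such peaks of the genome the shares were 5.95% and 2.16%. Both upward peaks lie in Runx1t1: an intron peak with 137 and 157 fragments and a log2 ratio of 0.60 (0.26 to 0.94), and the peak of start 4 (chr4:13784371-13785501), with 347 and 397 fragments and a log2 ratio of 0.60 (0.39 to 0.81). The 8 peaks of Runx1t1 had a median of 0.45, against -0.02 over all peaks, and 7 of them lay above 0. The exception was a strong intron peak 62.6 kb from the first start (chr4:13805601-13806421), with 596 and 370 fragments, 17.3 and 14.2 FPM, and a log2 ratio of -0.28 (-0.47 to -0.09). The largest peak of Runx1t1 was that of start 1, at 14.1 and 20.4 FPM, followed by the intron peak just named and by the peak of start 2, at 13.5 and 19.1 FPM.

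**Figure D4:**
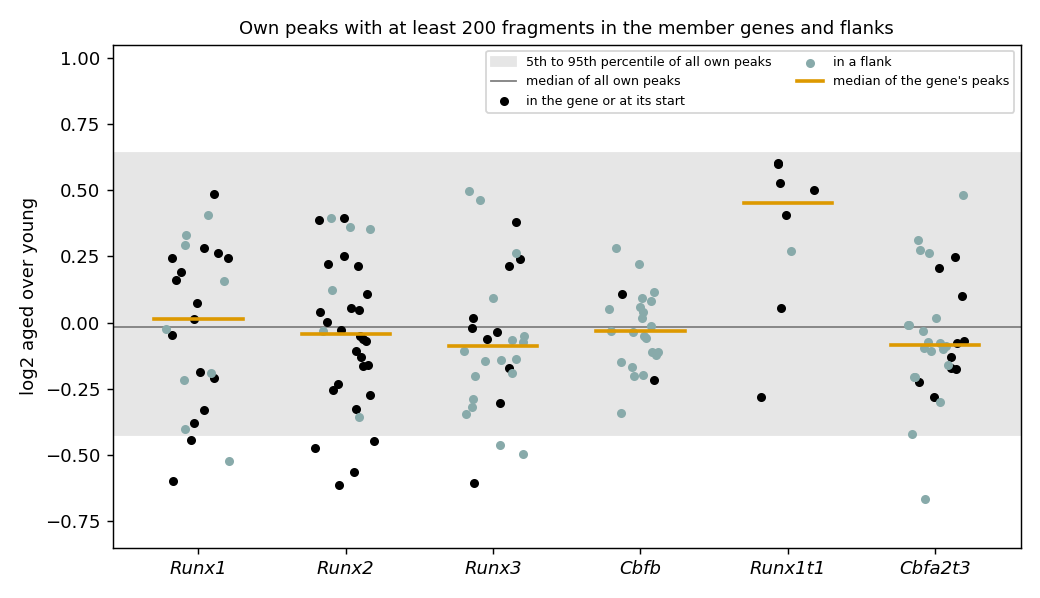
Log2 ratio of aged over young HSCs (y axis) for each own peak with at least 200 fragments, by gene (x axis), with peaks of the gene or its start in black, flank peaks in grey-green, the median of each gene in orange, and the 5th to 95th percentile of all own peaks shaded. The median of Runx1t1, 0.45, stands above those of the other genes, which lie between -0.09 and 0.02.

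Runx1 held peaks that differed in both directions. Inside the gene and outside the windows of its starts, its peaks with at least 200 fragments within 40 kb of P1 were lower in aged HSCs. Those between P2 and the end of the gene were higher. In the window of P2, a peak 467 bp after the start had -0.05 (-0.34 to 0.24). Between P1 and P2, which are 129 kb apart, the 26 peaks away from the starts had 6881 young and 4566 aged fragments, or 199 and 175 FPM, a log2 ratio of -0.18 (-0.24 to -0.13). Between P2 and the end of the gene, 12 peaks had 2543 and 2143 fragments, or 73.7 and 82.3 FPM, a log2 ratio of 0.16 (0.08 to 0.24). Of those with at least 200 fragments, 5 of 8 were below 0 between the promoters, all 5 with intervals below 0 and 1 other with its interval above 0, and 4 of 4 were above 0 between P2 and the gene end, 2 of them with intervals above 0. Over all 66387 peaks of this size, 53.0% were below 0, and 16.9% had intervals below and 17.4% above 0. In the 100 kb past the gene end the peaks of this size went both ways, with log2 ratios of -0.22, 0.41, -0.19 and -0.40. Over peaks of any size the counts went the other way, with 15 of 26 above 0 between the promoters and 8 of 12 below 0 between P2 and the gene end. Many of the small peaks have few fragments and intervals that include 0, and no share over all peaks of any size was counted. The sums rest on the large peaks, and the 3 described next carry much of them. This split was made after the peaks had been seen. In Runx2 both segments were lower, with -0.18 (-0.26 to -0.10) between P1 and P2 and -0.09 (-0.14 to -0.04) from P2 to the gene end. The first of these segments, with 3076 young and 2049 aged fragments, includes the peak at the start of the overlapping gene Supt3. That peak alone had 1669 and 1040 fragments, and the segment was not counted without it. In Runx3 the segments had -0.13 (-0.26 to -0.01) and -0.04 (-0.18 to 0.10).

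The largest peak of Runx1 (chr16:92821921-92822871), in the intron 3.75 kb after P1, had 2006 and 1205 fragments, or 58.1 and 46.3 FPM, a log2 ratio of -0.33 (-0.43 to -0.22). Another (chr16:92801361-92802201), 24.4 kb after P1 in the intron that is known to hold blood stem cell enhancers, had 45.5 and 39.9 FPM, a log2 ratio of -0.19 (-0.30 to -0.07). The third (chr16:92620601-92621601), 205 kb after P1 and downstream of P2, had 33.4 and 39.6 FPM, a log2 ratio of 0.24 (0.12 to 0.37). The intron peak with the lowest ratio in Runx1, 39.0 kb after P1 (chr16:92786851-92787351), had 757 and 377 fragments and -0.60 (-0.78 to -0.42), the 1 peak of the gene past 1.5-fold. It falls outside the rule for named peaks and was picked after its value was seen.

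**Figure D5:**
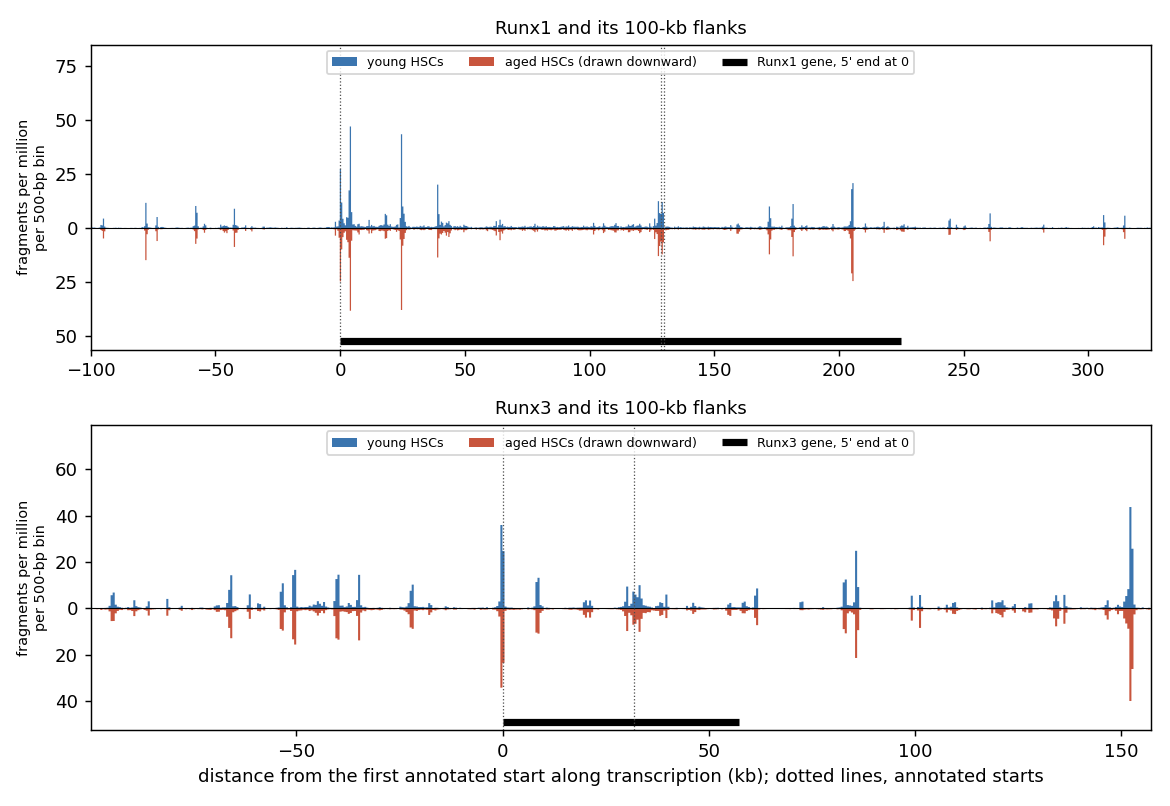
Level in FPM of 500-bp bins (y axis; young HSCs upward in blue, aged HSCs downward in red) by distance in kb from P1 along transcription (x axis), for Runx1 and Runx3 with 100 kb on either side; the black bar is the gene and dotted lines are annotated starts. In Runx1 the bars at 3.75, 24.4 and 39.0 kb are longer in young HSCs and those near 205 kb are longer in aged HSCs, while those at P1 of Runx3 are of similar length.

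The largest Runx1 intron peak is printed because it holds 2 RUNX cores facing each other, 2 bases apart. It is given as the 300 bases around the peak centre (chr16:92822246-92822545) on the plus strand of GRCm38 with the core in capitals.
Runx1 intron peak 3.75 kb after P1: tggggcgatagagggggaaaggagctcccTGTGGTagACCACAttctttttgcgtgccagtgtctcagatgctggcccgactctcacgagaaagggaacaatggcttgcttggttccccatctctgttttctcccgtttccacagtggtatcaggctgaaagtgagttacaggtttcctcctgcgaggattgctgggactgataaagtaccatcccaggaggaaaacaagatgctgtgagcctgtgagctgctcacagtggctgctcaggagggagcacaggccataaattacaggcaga
In every peak the core was searched only in the 300 bases around the centre, so the rest of wider peaks was not covered. It was present there in 46 of the peaks with at least 200 fragments in the 6 genes and flanks (31.3% of them). The share was 25.6% over all 66387 peaks, and 0 of the 8 peaks of Runx1t1 held the core in that stretch. Peaks with the core had a median log2 ratio of -0.07 in these loci and -0.00 over the genome, and those without it -0.05 and -0.02.

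Of the other large peaks, those of Runx2 were an intron peak 37.6 kb after P1 (chr17:44776591-44777791) next to the start of the overlapping gene Supt3, with 48.4 and 39.95 FPM and a log2 ratio of -0.28 (-0.39 to -0.16), a downstream flank peak (chr17:44432511-44433351) with 44.2 and 43.1 FPM, and the peak of P2 with 28.2 and 26.8 FPM. The flank peak lay far from any coding start, 244347 bp from the nearest, that of Clic5. Those of Runx3 were its P1 peak, at 50.3 and 48.1 FPM, a peak at the start of Clic4 in the flank, at 64.9 and 61.7 FPM, and a peak 85.7 kb after P1 (chr4:135206061-135206661), at 27.6 and 24.0 FPM with a log2 ratio of -0.20 (-0.35 to -0.06). The Cbfb promoter peak had 56.1 and 48.3 FPM, and the other 2 large peaks of its flanks belong to the neighbours 4931428F04Rik, with 48.4 and 42.1 FPM, and D230025D16Rik, with 38.2 and 36.7 FPM. The largest peak of Cbfa2t3 lay 21.1 kb upstream (chr8:122719661-122720801), with 66.9 and 67.6 FPM and a log2 ratio of 0.02 (-0.07 to 0.11). It was followed by a peak nearest to Galns, with 57.7 and 53.6 FPM, and by an intron peak 33.5 kb inside Cbfa2t3 (chr8:122665151-122666011), with 51.5 and 45.7 FPM and a log2 ratio of -0.17 (-0.28 to -0.07).

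The 3 lowest ratios among peaks holding at least 200 fragments lay in the flank of Cbfa2t3 near Piezo1 (chr8:122547771-122548311; 558 and 265 fragments; -0.66, -0.88 to -0.45), in the Runx2 intron next to P1 given above, and in an intron of Runx3, 39.7 kb after P1 (chr4:135160121-135160531; 209 and 103 fragments; -0.61, -0.97 to -0.27). In 500-bp bins, 479 of 4151 had at least 100 fragments, of which 29 were past 1.5-fold upward and 18 downward, against 9.05% and 2.89% of 182098 such bins over the genome. Runx1t1 held 13 of the 29 upward bins among 28 with enough fragments, and 0 downward. Its largest bin ratio lay 143 kb after start 1 (chr4:13886501-13887000), with 41 and 85 fragments from 41 and 80 cells, a log2 ratio of 1.44 (0.90 to 2.03). The lowest bins were 2 neighbours in the downstream flank of Runx3, 72.1 and 72.6 kb after P1 (chr4:135192501-135193500), with 97 and 106 fragments in young and 16 and 17 in aged HSCs, log2 ratios of -2.12 and -2.17. These fragments came from 93 and 97 young cells with at most 2 per cell, so that no single cell carried them, and repeats covered 4.0% and 0% of the 2 bins. Both bins were singled out after their values were seen.

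Regions assigned to Runx1 and Runx2 in the study's lists from bulk ATAC-seq of young and aged HSCs were also counted. Both come from the list of regions that closed with age, so they were chosen for a lower level in aged HSCs in that assay, and no value of the list was used. The region 58.0 kb upstream of Runx1 P1 (chr16:92883808-92884437) had 476 and 247 fragments here, or 13.8 FPM (12.6 to 15.1) and 9.49 FPM (8.34 to 10.7), a log2 ratio of -0.54 (-0.77 to -0.32). The region in an intron of Runx2, 160 kb after P1 (chr17:44654406-44655041), had 895 and 462 fragments, or 25.9 FPM (24.3 to 27.7) and 17.7 FPM (16.2 to 19.4), a log2 ratio of -0.55 (-0.71 to -0.38). Both intervals lay below 0. The study reports, from its single-cell ATAC-seq of young and aged HSCs, lower average accessibility at its closed regions in all cell clusters. A lower level was thus reported for the list as a whole and is not particular to Runx1 or Runx2. The other regions of the list were not counted here. Whether the mice of the bulk and single-cell libraries were the same is not given in the sources used here.

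To compare the share of cells with a fragment, cells were thinned to 3000 fragments in peaks, which 4786 young and 3270 aged cells reached. Runx1t1 start 1 had a fragment in 4.30% (3.75 to 4.92) of young and 6.33% (5.52 to 7.22) of aged cells, and 10.1% and 15.4% before thinning. Runx2 P1 had one in 4.35% (3.79 to 4.96) and 5.99% (5.21 to 6.86), and Cbfb, the highest, in 18.0% (16.9 to 19.2) and 15.9% (14.6 to 17.2). The intervals of the 2 ages did not overlap at these Runx1t1 and Runx2 starts and at Runx1t1 start 2, with 4.70% (4.12 to 5.34) and 6.21% (5.41 to 7.09), and they overlapped at Runx1t1 start 4. Cell shares were not counted over all promoters, so how common such a difference is between these 2 libraries is not known. At both promoters of Runx3 the share was slightly higher in aged cells and at Runx1 P2 slightly lower, the opposite of their log2 ratios, with overlapping intervals. The nearly closed start 3 of Runx1t1 had a fragment in 0.104% and 0.122% of cells. Over the whole Runx1t1 gene, 30.0% (28.7 to 31.4) of young and 38.7% (37.0 to 40.4) of aged thinned cells had at least 1 fragment, with means of 0.367 and 0.508 per cell and a variance of 1.06 and 1.09 times the mean. That ratio lay between 1.0 and 1.09 for all 6 genes in both libraries.

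A pair of lists gives the surroundings of the family: 32 genes of partners and corepressors of Runx and ETO proteins, and 29 genes known as Runx targets in blood, each taken at its promoter with most fragments. Among all 14898 genes with at least 200 fragments, 6.86% were past the limit of 0.32 upward and 1.66% downward, with a median log2 ratio of -0.06. Of the 31 partner genes with enough fragments, 0 were past it in either direction, and their median was -0.07. The lowest was Kat6a, a histone acetyltransferase, with 68.9 and 57.01 FPM and -0.27 (-0.37 to -0.18), and the highest was Erg, an ETS factor of HSCs, with 24.7 and 29.6 FPM and 0.26 (0.12 to 0.41). Cbfa2t2, the third ETO gene, had 54.9 and 52.3 FPM and -0.07 (-0.17 to 0.03). Most of the partner promoters had over 20 FPM in young HSCs, a level at which few windows passed the limit. Of windows with 20 to 40 FPM in young HSCs, 0.92% were past it upward and 1.08% downward. Of those with 40 to 80 FPM, 0.07% and 0.31% were. Of 20 target genes with enough fragments, 1 was past it upward and 1 downward, with a median of -0.08. The gene past it upward was Csf2, the gene of the cytokine GM-CSF, with 7.82 and 10.3 FPM and 0.40 (0.15 to 0.65). The gene past it downward was Itga2b, the platelet integrin CD41, with 31.0 and 24.2 FPM and -0.36 (-0.50 to -0.21). With at least 50 fragments instead of 200, 3 of 26 target genes were past it upward and 5 downward, against 9.04% and 3.55% of all genes. Spi1, a classical Runx1 target that encodes PU.1, had 36.8 and 36.2 FPM and -0.02 (-0.15 to 0.10).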

How the data were processed

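The authors made 1 single-cell ATAC-seq library per age with a droplet kit, and aligned reads to mm10 with Cell Ranger ATAC, which removed duplicates and shifted fragment ends. The deposited values used are counts, as lists of unique fragments with barcodes and tables of counts per barcode, with no normalization. The columns marking called cells and in-peak counts are the authors' own. Their methods name a release whose table layout differs from the deposited one.

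Kept were called barcodes with 3000 to 20000 in-peak fragments. No doublet caller was run; leaving out cells over 15000 in-peak fragments was 1 of the alternatives tried. Peaks were called on cut sites of kept cells (windows of 151 bp, Poisson, q under 0.001) and combined. A fragment counted once in a region holding at least 1 of its ends. Promoters are GENCODE M21 5' ends of coding transcripts joined within 1000 bp. Ratios are log2 of aged over young FPM with a pseudocount of 1. "Past" means a log2 ratio of at least 0.32 or at most -0.32 (promoters, genes), or 1.5-fold in either direction (peaks, bins), for features with at least 200 fragments (bins, 100). Named peaks were, per gene, the 3 with most fragments and, over all genes, the 3 past the fold with the largest ratio in each direction; named list genes were up to 3 past the fold each way, and others named were chosen after their values were seen. Scripts used Python 3.11.15, numpy 2.4.6, pandas 2.3.3 and scipy 1.17.1, and were tested on simulated data. The genes, lists and rules were chosen with earlier results of these data known. No test was made, since each age has 1 library.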

Additional observations from a re-analysis of the deposited data

Results flagged for a closer look

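Fragments at the 14 promoter windows also occurred in barcodes that were not called as cells, which no comparison above uses. In young HSCs they came to 598 of 2977168 fragments of such barcodes (201 per 1000000 fragments, against 243 in kept cells). In aged HSCs they came to 549 of 5229240 (105 per 1000000, against 241 in kept cells). Both are above the 3 fragments that a count of 0 allows. Of all fragments of these barcodes, 52.0% lay in peaks in young and 29.5% in aged HSCs. Some of these barcodes had the depth of kept cells. In all, 5010 young and 3536 aged barcodes, called or not, had 3000 to 20000 in-peak fragments, against 4887 and 3405 kept. The part of uncalled barcodes in the levels of kept cells was not tested.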

How the results depend on the processing

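Of 154 alternative values of promoter ratios and 54 of gene body ratios (scaling, short fragments, other cell or window limits, thinning), 148 and 48 stayed within the counting interval, and no ratio past the limit changed sign. The log2 ratios of Runx1t1 stayed between 0.43 and 0.69 at starts 1, 2 and 4 and between 0.43 and 0.51 over the gene, the lowest of the latter, 0.43, with short fragments only. Thinning gave -0.11 for Runx1 P2, 0.065 for Runx3 P1, -0.36 for Cbfa2t3 start 2, which put 1 window past the limit downward (0.014 with short fragments only), and 0.0047 for the Runx3 gene body. Windows of 500 bp on either side gave 0.63 for the Runx1 start downstream of P2, whose window then does not overlap that of P2, -1.18 for the nearly closed Runx1t1 start 3, and P2 shares in young and aged HSCs of 35.8% and 38.4% for Runx1 and, an alternative chosen after seeing the data, 57.6% and 49.7% for Runx2 and 19.7% and 20.5% for Runx3. Windows of 2 kb gave 0.18 for Runx2 P1, below the limit of 0.32. Scaling to all nuclear fragments gave -0.051 for the Runx1 and -0.13 for the Runx2 gene body, and short fragments only gave -0.11 and -0.15. With at least 50 fragments, 3 of 26 target genes were past the limit upward and 5 downward (9.04% and 3.55% of all genes), 25 and 25 of 300 peaks (13.1% and 6.45% of all), and 87 and 56 of 901 bins (13.3% and 4.99% of all). With a fold of 1.5, 0 and 0 target genes were past it, and with a fold of 2, 0 and 0 peaks and 4 and 5 bins. A longer RUNX motif matched 1 promoter and, in the 300 bases around the peak centre, 10 peaks of the genes. The cause was not tested for the thinned values. Counting error limits what can be seen at windows with few fragments. No paired analysis was possible because each age has 1 library.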
